A study of Mus musculus with 13 samples.

Results

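The mitochondrial solute carriers of family 25 were followed in left ventricular RNA of 4 groups of mice. Members were all probes whose gene symbol on the array platform is Slc25a followed by a number, with the exception of Slc25a20. This gave 54 probes for 38 genes, of 25697 probes on the array. The rule itself uses no expression value, but it was set with earlier results of these data known. A probe was counted as measured when its detection p, the probability of its signal among the negative controls of the same array, was under 0.01 on at least 3 of 13 arrays. By this criterion 33 probes for 26 genes were measured.

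The study asked how overexpression of the nuclear receptor LXRα in the heart alters the response to pressure overload, using Illumina mouse BeadChips. All mice were 4-month-old males labelled C57BL/6, and the left ventricle was taken 5 weeks after surgery. Wt animals were littermates without the transgene, and LXRα-Tg animals carried murine LXRα under the αMHC promoter, which is active in cardiomyocytes, on a line founded in FVB and backcrossed to C57BL/6. Surgery was either transverse aortic constriction (TAC), which narrows the aorta, or a sham operation. Wt animals gave 3 sham and 4 TAC arrays, and LXRα-Tg animals gave 3 of either kind, going by the labels. Whether different arrays came from different mice is not given by the labels, and p-values therefore describe array-to-array spread, which may be technical. RNA came from whole ventricular tissue, so fewer cells of a type and less RNA per cell cannot be told apart.

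Several arrays went against their labels, and directions below are those of the labelled groups. Nr1h3, which encodes LXRα, had a signal of at least 25187 on 5 arrays and of at most 397 on the remaining 8. It went against the genotype label on 5 arrays, namely LXRα-Tg sham 1, LXRα-Tg sham 2, LXRα-Tg TAC 3, Wt sham 3 and Wt TAC 2. The Y-linked gene Eif2s3y was not detected on Wt sham 1 and LXRα-Tg TAC 3, although all animals were labelled male. Between 9454 and 10392 probes were detected per array, and between 23 and 27 member genes. Of 7 cardiomyocyte markers on the array 6 or 7 were detected on every array, and all 6 kidney markers were detected on Wt sham 3 (summed signal 2075). On LXRα-Tg TAC 1 and Wt TAC 4 there were 5 of these 6 detected, at sums of 624 and 245.

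Carriers of this family sit in the inner mitochondrial membrane, with a few in peroxisomes or the outer membrane, and move substrates, cofactors and ions that cannot cross the lipid bilayer. In cardiac muscle they exchange ADP for ATP, import phosphate, and run the malate-aspartate shuttle, which carries reducing equivalents from glycolysis into the mitochondrion. LXRα acts as a heterodimer with RXR on direct repeats of a hexamer close to AGGTCA.

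The promoters of Slc25a29, Slc25a34 and Slc25a42 are shown because these members had the smallest adjusted p-values between the sham groups (below). Each runs from 250 bases before to 50 bases after the annotated start, 5′ to 3′ on the strand of the gene, in RefSeq on GRCm38.p6. Capitals mark, on either strand, the GC box GGGCGG, the CCAAT box CCAAT and the nuclear receptor hexamer AGGTCA. The hexamer is also contained in 2 longer motifs that were searched, its direct repeat with any 4 bases between (DR4) and the ERR-type motif TCAAGGTCA.
Slc25a29 promoter, chr12:108835827-108836126, minus strand: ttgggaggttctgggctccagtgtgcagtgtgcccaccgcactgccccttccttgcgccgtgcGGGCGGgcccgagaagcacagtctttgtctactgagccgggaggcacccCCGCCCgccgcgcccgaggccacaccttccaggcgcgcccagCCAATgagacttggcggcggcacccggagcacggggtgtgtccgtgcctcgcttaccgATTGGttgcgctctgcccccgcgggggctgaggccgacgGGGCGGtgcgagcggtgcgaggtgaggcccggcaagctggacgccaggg
Slc25a34 promoter, chr4:141623785-141624084, minus strand: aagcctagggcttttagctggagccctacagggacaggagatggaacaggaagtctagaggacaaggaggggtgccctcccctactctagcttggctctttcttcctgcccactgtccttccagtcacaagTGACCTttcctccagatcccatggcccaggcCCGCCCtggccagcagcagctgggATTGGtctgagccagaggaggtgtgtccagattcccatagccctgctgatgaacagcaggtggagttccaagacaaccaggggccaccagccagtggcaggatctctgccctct
Slc25a42 promoter, chr8:70212232-70212531, minus strand: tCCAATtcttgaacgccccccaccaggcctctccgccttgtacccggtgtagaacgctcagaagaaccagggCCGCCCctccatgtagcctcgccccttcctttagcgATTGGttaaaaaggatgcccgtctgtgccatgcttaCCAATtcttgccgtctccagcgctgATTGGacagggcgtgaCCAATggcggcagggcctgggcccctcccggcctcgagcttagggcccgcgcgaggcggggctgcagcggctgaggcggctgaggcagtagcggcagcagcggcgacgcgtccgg

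The 3 promoters shared a GC box and a CCAAT box and differed in the rest. Slc25a29 held 3 GC boxes and 2 CCAAT boxes at a GC content of 72.3%, Slc25a42 held 1 GC box and 5 CCAAT boxes at 65.7%, and Slc25a34 held 1 of each at 59%. The hexamer AGGTCA was found in the Slc25a34 promoter alone of these 3, beginning 119 bases before the start. RefSeq promoters were matched for 22 of the 26 measured genes, 27 promoters in all. A GC box was present in 24 of the 27, against 61.9% of the 8303 promoters of all genes tested and 35.9% of all 32544 promoters in the table. A CCAAT box was present in 14 of the 27, against 37.3% and 37.4%, and AGGTCA in 4 of the 27, against 12.6% and 16.2%. DR4, the ERR-type motif and the TATA box TATAAA were found in none of the 27. Their shares were 0%, 0.301% and 7.66% of the promoters of all genes tested and 0.0154%, 0.412% and 13.6% of all 32544 promoters. These are letter matches in a short window and say nothing of binding.

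Detection separated the carriers into a set present throughout and a set near background. In 22 genes a probe was detected on all 13 arrays. They included the phosphate carrier Slc25a3 (signal 3043 to 7427), the adenine nucleotide translocase Slc25a5 (5793 to 9201), the oxoglutarate carrier Slc25a11 (2536 to 4847) and the aspartate-glutamate carrier Slc25a12 (808 to 1360). Detection was partial for the remaining 4 measured genes. Slc25a35 was detected on 12 arrays, the ATP-Mg/phosphate carrier Slc25a24 on 8, the folate and FAD carrier Slc25a32 on 6, and the uncoupling protein relative Slc25a14 on 3. Slc25a14 was detected on Wt TAC arrays only (3 of 4), with signals of 18.2 to 21.9 on those 3 and 4.1 to 19.4 on the 9 arrays of the other groups.

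Among closely related pairs, detection often rested with 1 gene. The citrin gene Slc25a13, the liver counterpart of Slc25a12, had 2 probes, each detected on 1 array. The glutathione carrier Slc25a39 was detected on all 13 arrays, at 319 to 555, while the 3 probes of its relative Slc25a40 were detected on 0, at −7.5 to 6.2. Slc25a5 was detected throughout, and both probes of the testis-enriched translocase Slc25a31 on 0 arrays. The iron carrier mitoferrin 2, Slc25a28, and the pyrimidine nucleotide carriers Slc25a33 and Slc25a36 were detected on all 13. In all, 9 genes were detected on 0 arrays (Slc25a18, Slc25a21, Slc25a27, Slc25a31, Slc25a40, Slc25a41, Slc25a46, Slc25a48 and Slc25a53) and 3 on 1 or 2 arrays (Slc25a13, Slc25a22 and Slc25a30). A signal below the detection limit does not show that a transcript was absent. Slc25a4, Slc25a23 and Slc25a37 were not analysed here.

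**Figure D1:**
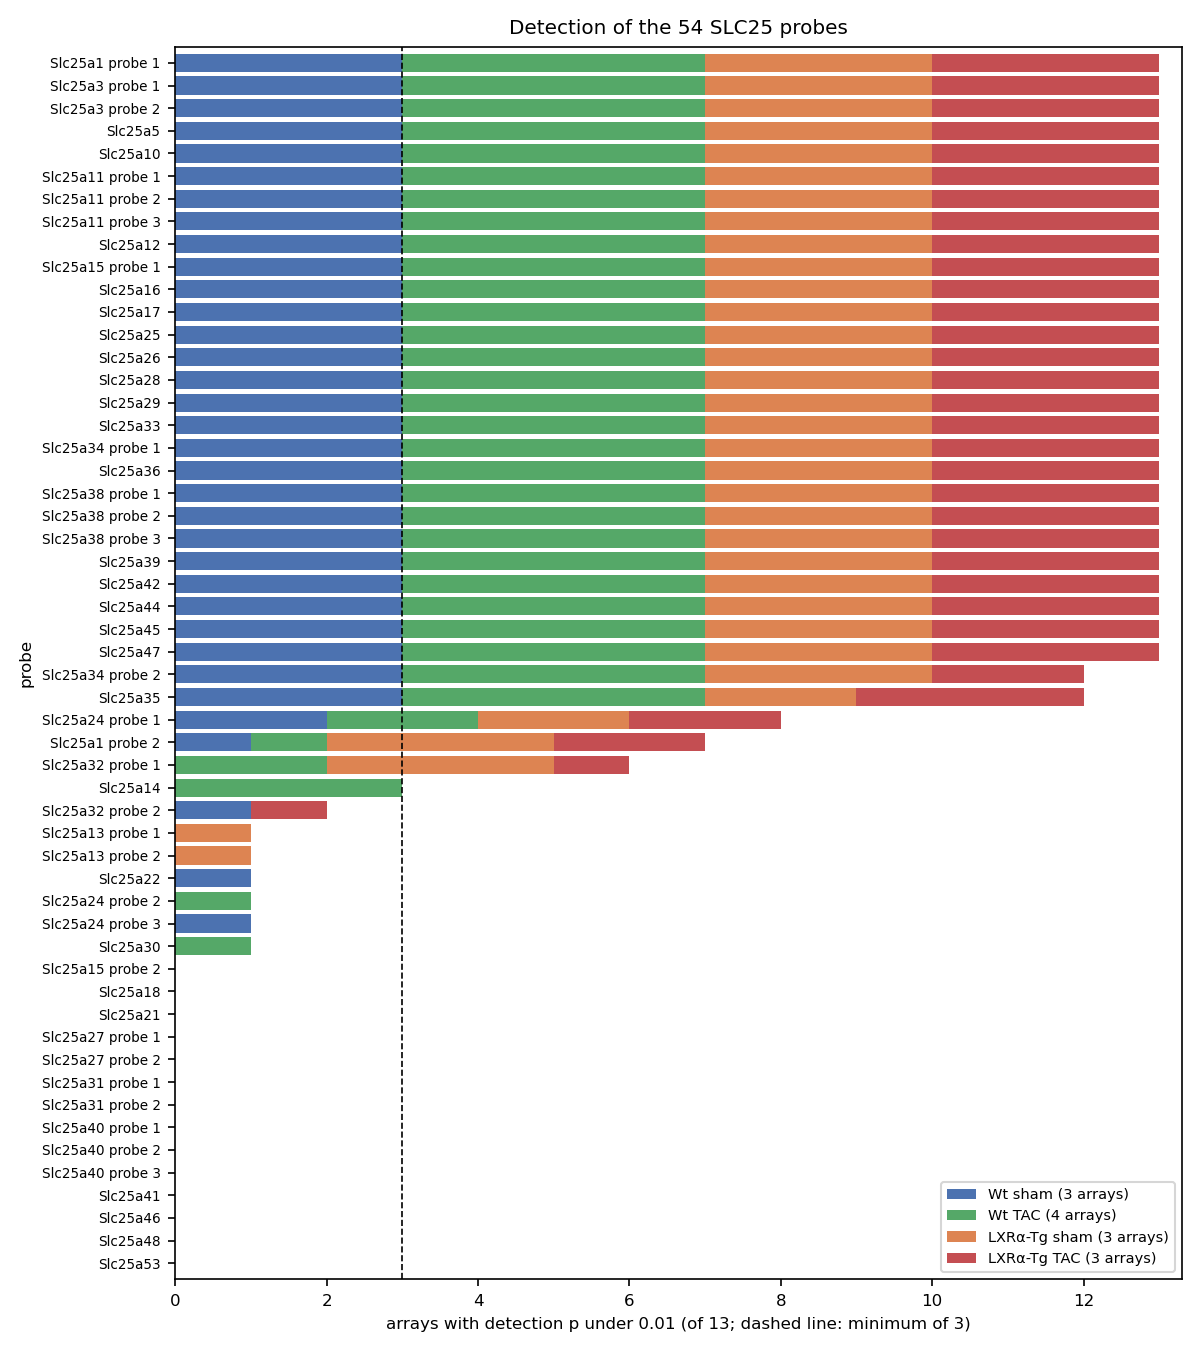
Number of arrays (x axis, of 13) on which each of the 54 SLC25 probes (y axis) had a detection p under 0.01, stacked by labelled group. The dashed line marks the minimum of 3 arrays: 33 probes reach it, 27 are detected on all 13 arrays, and 14 on none.

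The first comparison, between the sham groups, addressed the effect of the genotype label without pressure overload. In this group 4 of the 5 measured amino acid carriers and the coenzyme A carrier Slc25a42 had their lowest mean of the 4 groups, but no member passed the test. Of 26 members 0 were called at an adjusted p under 0.05, where 1.58% of the 7837 genes tested were called. At an unadjusted p under 0.05 there were 6 members lower and 1 higher, against 6.74% lower and 9.34% higher of all genes. The median log2 fold change of the members was −0.18, against −0.01 for all genes, and 19 of 26 members lay below 0, against 51.2% of all genes. Without the 5 arrays whose Nr1h3 signal went against the label the members' median was −0.16. This left LXRα-Tg sham 3 as the only array of its group.

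Slc25a29, a carrier of basic amino acids, had normalized log2 signals of 6.05, 6.04 and 6.29 on the Wt sham arrays and 5.48, 5.15 and 5.32 on the LXRα-Tg sham arrays. The groups did not overlap. Before normalization its signals were low, at 38.3, 52.8 and 51.5 in Wt sham and 34.4, 26.1 and 22.6 in LXRα-Tg sham. The lowest signals detected on those LXRα-Tg sham arrays were 21.4, 24.2 and 18.9. The log2 fold change was −0.81 (SE 0.19, adjusted p = 0.0566), a level 1.75-fold lower in LXRα-Tg sham. Within slide 1, with LXRα-Tg sham 1 alone in its group, the log2 fold change was −0.57. Within slide 2, with Wt sham 3 alone in its group, it was −1.05. Without the 5 arrays against their label, with LXRα-Tg sham 3 alone, it was −0.72. None of these values was replicated in both groups.

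Slc25a34, a family member without a settled substrate, had log2 signals of 9.93, 9.84 and 10.35 in Wt sham and 9.36, 9.43 and 9.58 in LXRα-Tg sham. Again every LXRα-Tg sham array lay below every Wt sham array. The log2 fold change was −0.58 (SE 0.15, adjusted p = 0.0698), and the second, dimmer probe of the gene gave −0.39. With the brighter probe it was −0.52 within slide 1, −0.84 within slide 2 and −0.30 without the 5 arrays. Each of these again left a single array in a sham group. The array Wt sham 3, which also carried kidney transcripts, was the highest of all 13 for this gene. Without it the log2 fold change was −0.42.

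Slc25a42, which carries coenzyme A in exchange for adenine nucleotides, showed the lowest fitted value of the family. Its log2 signals were 8.13, 7.68 and 7.31 in Wt sham and 6.68, 6.73 and 6.92 in LXRα-Tg sham. The spread was wider in Wt sham (SD 0.41, n = 3) than in LXRα-Tg sham (SD 0.13, n = 3), and the groups did not overlap. The log2 fold change was −0.93 (SE 0.27, adjusted p = 0.112). It was −1.22 within slide 1, −0.49 within slide 2 and −0.98 without the 5 arrays, each with a single array in a sham group.

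The remaining amino acid carriers lay on the same side of 0, and 5 of the 5 measured were below 0, with a median log2 fold change of −0.33. Slc25a12, the aspartate-glutamate carrier of the malate-aspartate shuttle, had log2 signals of 10.29, 10.31 and 10.18 in Wt sham and 10.08, 9.92 and 9.90 in LXRα-Tg sham (log2 fold change −0.29, SE 0.11, adjusted p = 0.206). Slc25a38, a glycine carrier used in heme synthesis, had 10.34, 10.07 and 10.15 against 9.94, 9.75 and 9.86 (log2 fold change −0.33, SE 0.13, adjusted p = 0.221). Neither pair of groups overlapped. The 2 other probes of Slc25a38 gave −0.29 and −0.23. Slc25a15, the ornithine carrier of the urea cycle, had 7.08, 7.19 and 7.23 against 6.29, 6.54 and 7.16, and its groups overlapped (log2 fold change −0.50, adjusted p = 0.279). Without the 5 arrays its value was 0.02. Slc25a44, which carries branched-chain amino acids, had means of 6.22 ± 0.33 (SD, n = 3) and 6.02 ± 0.22 (SD, n = 3), which overlapped.

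**Figure D2:**
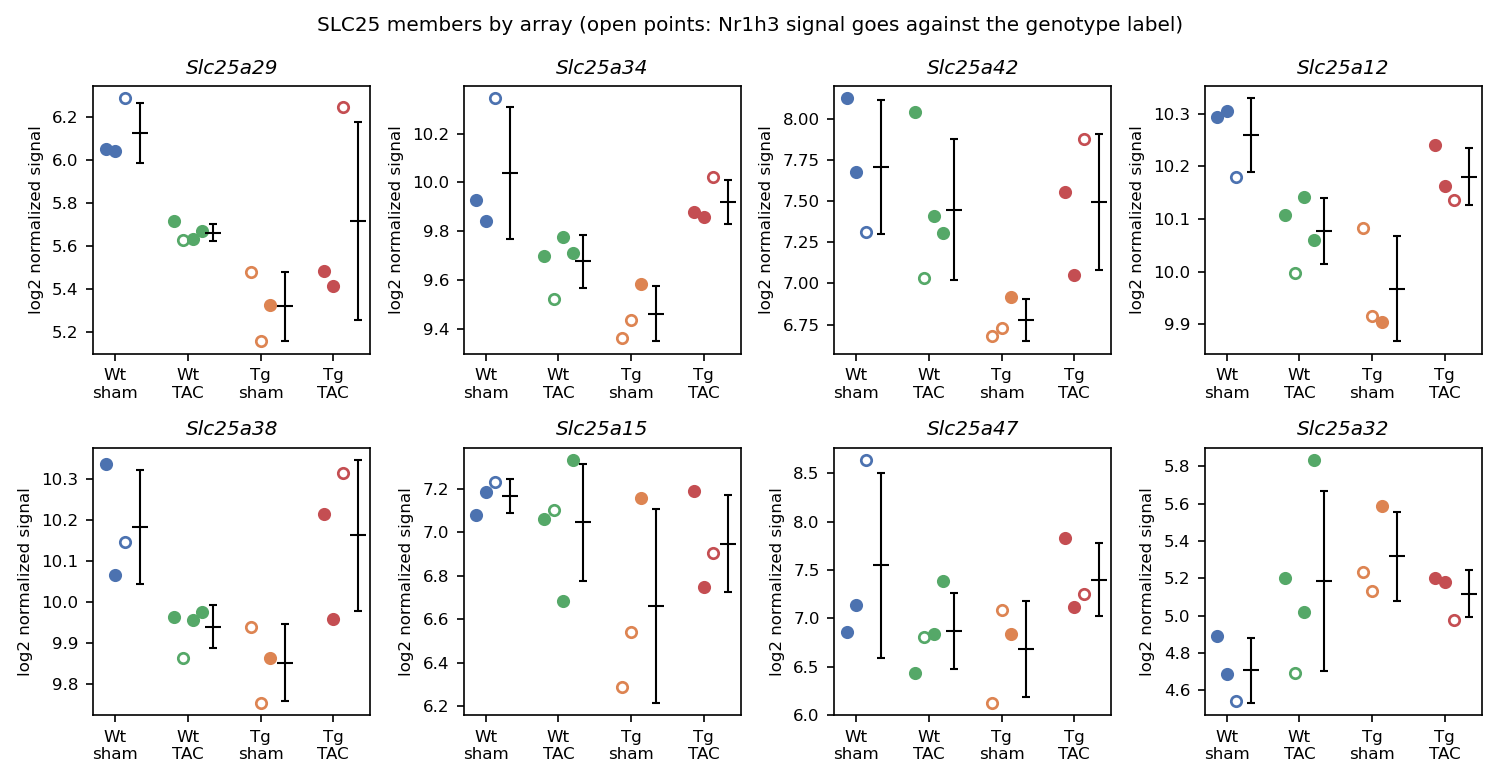
Normalized log2 signal (y axis) of 8 SLC25 genes on each of the 13 arrays by labelled group (x axis), with the mean ± SD beside the points. Open points are the 5 arrays whose Nr1h3 signal goes against the label. For Slc25a29, Slc25a34, Slc25a42, Slc25a12 and Slc25a38 every Tg sham array lies below every Wt sham array.

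Not overlapping was common in this comparison. It applied to 6 of the 26 members, or 23.1%, against 20.4% of all genes, and to 5 members in the lower direction, against 9.4% of all genes. The sixth was Slc25a32. The probe that represented it was not detected on any Wt sham array and was detected on all 3 LXRα-Tg sham arrays. Its signals were 26.1, 25.6 and 30.1 in LXRα-Tg sham against 10.9, 9.7 and 4.7 in Wt sham. The measured log2 fold change was 0.61 (SE 0.24, adjusted p = 0.221). The Wt sham value is only a bound, set per array at the lowest signal detected there. By this probe the level was at least 1.09-fold higher in LXRα-Tg sham. The second probe of Slc25a32 did not meet the detection criterion and did not show this rise. It was detected on 1 Wt sham array and 0 LXRα-Tg sham arrays. Its signals were 7.7, 14.6 and 1.6 in LXRα-Tg sham against 7.2, 20.2 and 14.9 in Wt sham.

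Slc25a47, a carrier known from liver, was highest on the array with the highest liver markers. Its signals were 77.5, 133 and 318 in Wt sham and 64, 158 and 92.9 in LXRα-Tg sham. The summed signal of 6 liver markers on the same arrays was 560, 1186 and 4369 in Wt sham and 221, 1118 and 1215 in LXRα-Tg sham. The fitted log2 fold change was −0.86 (SE 0.41, adjusted p = 0.328), and −0.32 without Wt sham 3, the array with the highest value of both. The part of liver RNA in this value was not tested.

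None of the phosphate, adenine nucleotide, di- and tricarboxylate or metal carriers had an unadjusted p under 0.05 with the probe that represented its gene. Slc25a3 gave a log2 fold change of −0.37 (SE 0.26, adjusted p = 0.537). Its second probe gave −0.54, with an unadjusted limma p of 0.0466 and an adjusted p of 0.319 over all probes. Slc25a5 and Slc25a11 had group means that overlapped throughout, at log2 levels of 12.81 ± 0.09 and 12.75 ± 0.24 (SD, n = 3) for Slc25a5. Slc25a33 gave −0.34 (adjusted p = 0.582) and Slc25a28 −0.18 (adjusted p = 0.568). On the higher side were Slc25a45 at 0.34 (adjusted p = 0.514), the citrate carrier Slc25a1 at 0.22 (adjusted p = 0.571), with 0.36 for its second probe, and Slc25a14 at 0.16 (adjusted p = 0.658). All of these groups overlapped.

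**Figure D3:**
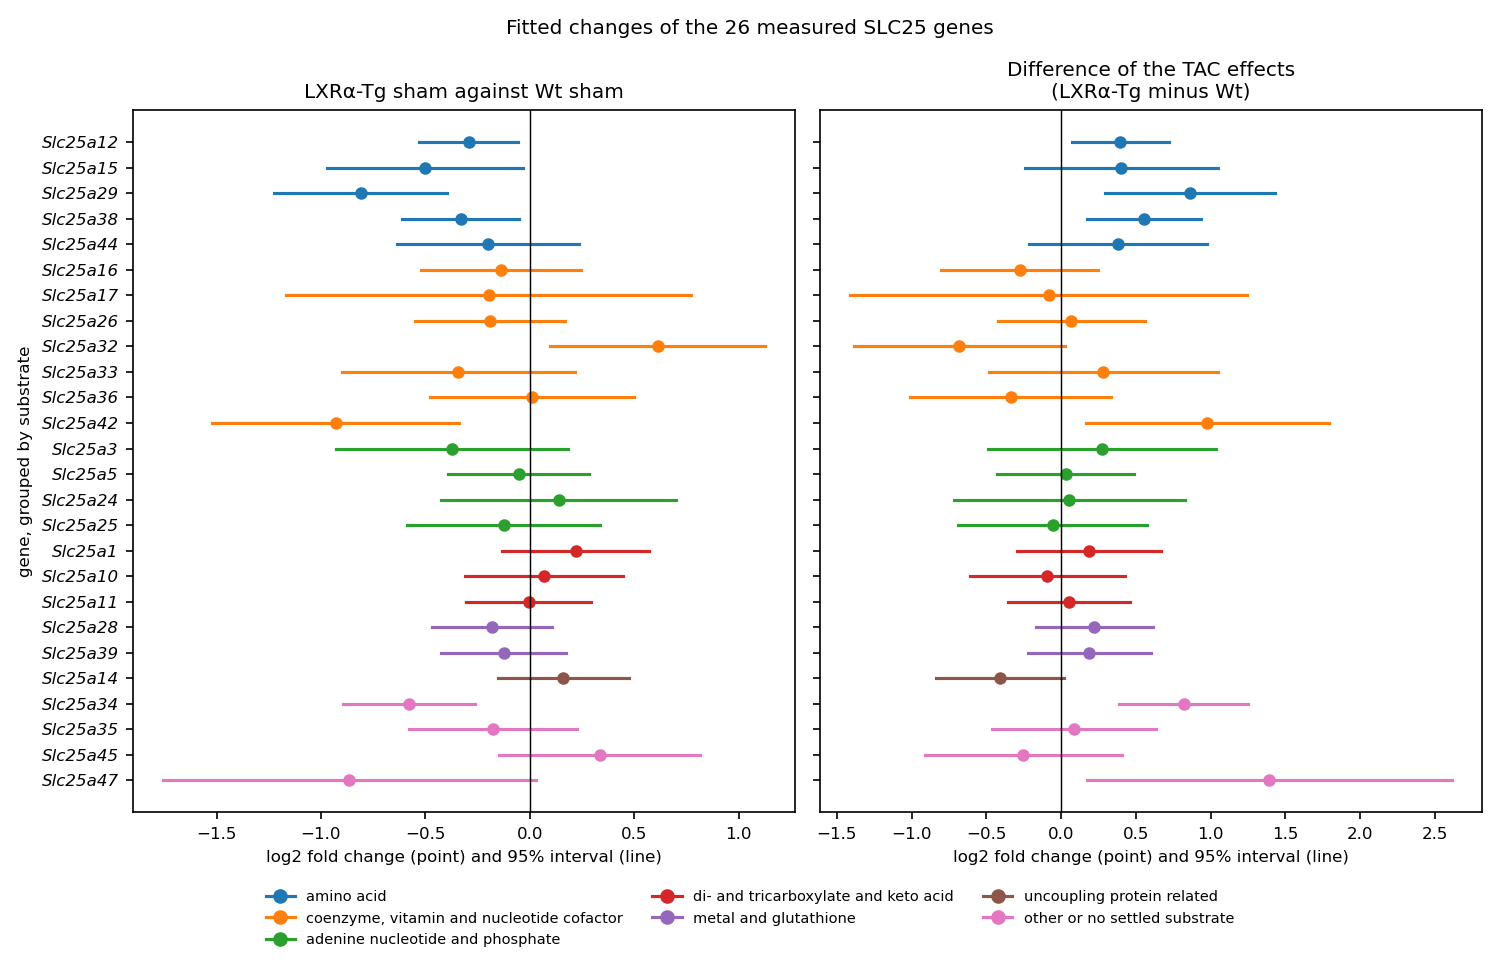
Fitted log2 fold change (x axis, point) with its 95% interval (line) for the 26 measured SLC25 genes (y axis), coloured by substrate. Left, LXRα-Tg sham against Wt sham, where 19 of 26 points lie below 0; right, the TAC effect in LXRα-Tg minus that in Wt, where 18 of 26 lie above 0. No gene passed an adjusted p of 0.05 in either.

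Other mitochondrial genes were set beside the carriers. Of 82 measured respiratory chain and ATP synthase genes 0 were called between the sham groups, 68 lay below 0, and their median log2 fold change was −0.14. The 17 genes of protein import had a median of −0.05, with 0 called. Of 12 other mitochondrial transport genes 1 was called, the outer membrane translocator protein gene Tspo, at a log2 fold change of 0.64 (SE 0.13, adjusted p = 0.0317). Of 4 measured family members under other symbols together with Slc25a20, 0 were called.

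Array means were taken for the carriers and for the respiratory chain. The mean of the 26 members, each centred over the 13 arrays on the log2 scale, was −0.15, −0.11 and −0.08 on the LXRα-Tg sham arrays and 0.10, −0.01 and 0.14 on the Wt sham arrays. These groups did not overlap. For the respiratory chain the values were 0.07, −0.19 and −0.15 in LXRα-Tg sham and 0.15, 0.15 and −0.09 in Wt sham, which overlapped. Markers of some other cell types moved with the comparison, going by signals that were not normalized between arrays. The summed signal of 7 atrial cardiomyocyte markers was 27077 to 36277 in LXRα-Tg sham and 6559 to 11686 in Wt sham, with 5 or 6 and 3 to 6 of the 7 detected. That of 7 fibroblast markers was 11389 to 15059 and 7646 to 10452, that of 6 endothelial markers 2590 to 3160 and 1713 to 2498, and that of 4 macrophage markers 1171 to 2482 and 719 to 1218. The macrophage sums overlapped, as did those of smooth muscle, erythroid, adipocyte, liver and kidney markers. On the normalized, centred log2 scale the endothelial means overlapped too, at 0.07, −0.03 and 0.09 against −0.17, −0.01 and −0.17. The atrial, fibroblast and macrophage means did not overlap on that scale. The atrial list includes Nppa, the gene of the natriuretic peptide ANP. By RT-PCR the paper reports raised basal Anp in LXRα-Tg mice. The part of Nppa in the atrial sums was not tested. The cardiomyocyte markers summed to 89910 to 106946 and 80928 to 102028. On the normalized, centred log2 scale their means were −0.07, −0.30 and −0.13 in LXRα-Tg sham and 0.31, 0.18 and −0.16 in Wt sham, which overlapped through Wt sham 3. The part of these markers in the carriers' values was not tested.

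**Figure D4:**
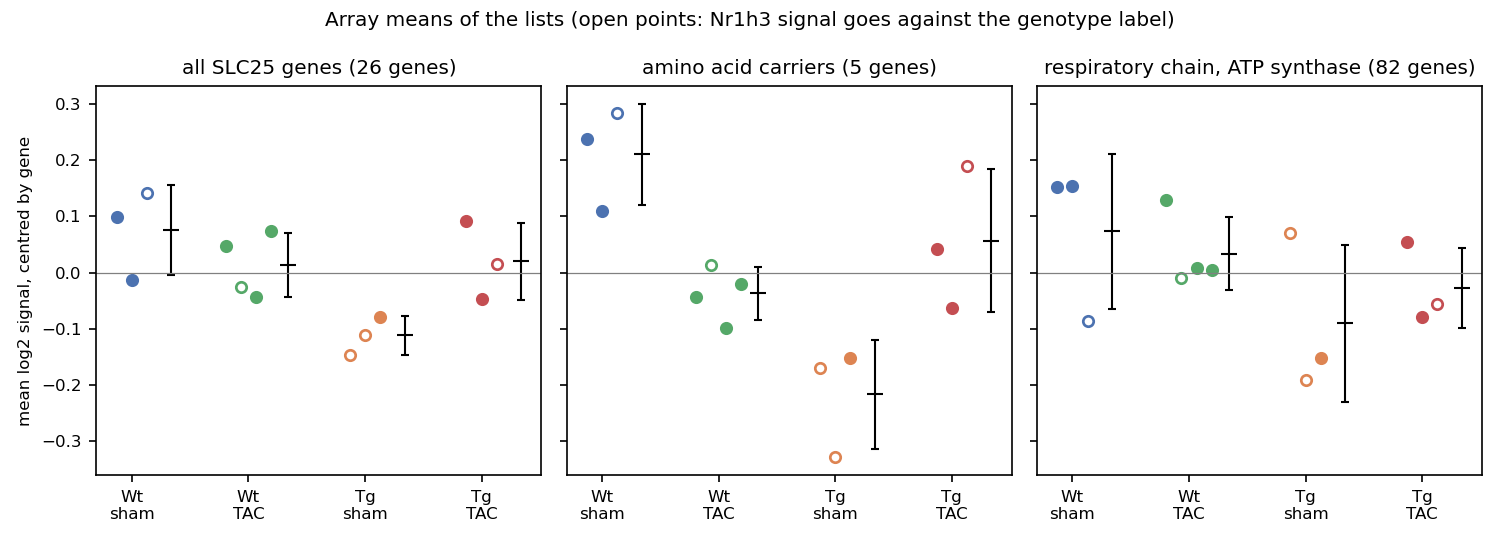
Mean log2 signal, centred by gene (y axis), of all 26 SLC25 genes, the 5 amino acid carriers and the 82 respiratory chain and ATP synthase genes on each of the 13 arrays by labelled group (x axis), with mean ± SD beside the points. Open points are the 5 arrays whose Nr1h3 signal goes against the label. The LXRα-Tg sham arrays lie at −0.15 to −0.08 for all SLC25 genes, below the Wt sham arrays.

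TAC in Wt mice addressed the response to pressure overload under the Wt label, and shares its 3 Wt sham arrays with the comparison above. Nr1h3 was high on Wt sham 3 and Wt TAC 2, against that label. Slc25a29, Slc25a34, Slc25a12 and Slc25a38 lay lower on every Wt TAC array, and none passed. Of 26 members 0 were called, as were 0% of all genes. At an unadjusted p under 0.05 there were 2 members lower and 1 higher, against 2.13% and 4.75% of all genes. The 1 higher was Slc25a14, which met the detection criterion only through Wt TAC arrays and so had to lie high there. The members' median log2 fold change was −0.11 against 0.02 for all genes, and 0.0018 without the 5 arrays against their label.

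Slc25a29 had log2 signals of 5.72, 5.63, 5.63 and 5.67 on the Wt TAC arrays, the tightest group for this gene and below all Wt sham arrays (log2 fold change −0.47, SE 0.18, adjusted p = 0.637). Slc25a34 had 9.70, 9.52, 9.77 and 9.71, also below all Wt sham arrays (−0.36, SE 0.14, adjusted p = 0.635), and its value was −0.21 without Wt sham 3. Slc25a12 at 10.08 ± 0.06 and Slc25a38 at 9.94 ± 0.05 (SD, n = 4) completed the 4 members that did not overlap, or 15.4%, all lower, against 2.87% of all genes in that direction. Their log2 fold changes were −0.18 (adjusted p = 0.775) and −0.24 (adjusted p = 0.736). Slc25a47 gave −0.68 (adjusted p = 0.775), and −0.13 without Wt sham 3, the array with the highest liver markers. On the higher side Slc25a32 gave 0.48 (adjusted p = 0.725), Slc25a14 0.31 (adjusted p = 0.722) and Slc25a36 0.23 (adjusted p = 0.863). With the probes that represented them, Slc25a32 and Slc25a14 were both below detection on all Wt sham arrays, and for neither did the bound give a fold.

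TAC in LXRα-Tg mice shares its 3 LXRα-Tg sham arrays with the first comparison, in which those arrays were the low group. Slc25a12, Slc25a34 and Slc25a38, which lay lower after TAC in Wt, lay higher here on every TAC array. Of 26 members 0 were called, as were 0% of all genes. At an unadjusted p under 0.05 there were 3 members higher and 0 lower, against 3.1% and 3.94% of all genes. The median log2 fold change was 0.09 against 0.01 for all genes.

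Slc25a42 had log2 signals of 7.55, 7.05 and 7.88 on the LXRα-Tg TAC arrays, above all LXRα-Tg sham arrays (log2 fold change 0.72, SE 0.27, adjusted p = 0.643). Slc25a34 had 9.88, 9.86 and 10.02 (0.46, SE 0.15, adjusted p = 0.555). These and Slc25a12, Slc25a38, Slc25a39 and Slc25a47 were the 6 members whose groups did not overlap, all higher, against 5.75% of all genes in that direction. Slc25a12 gave 0.21 (adjusted p = 0.695), Slc25a38 0.31 (adjusted p = 0.666) and Slc25a47 0.71 (adjusted p = 0.736). Slc25a47 had signals of 236.2, 86.6 and 110.3 on the LXRα-Tg TAC arrays, where the liver markers summed to 4302, 553 and 650. The part of liver RNA in this rise was not tested. Slc25a29 had 5.48, 5.41 and 6.25, so that 1 array, LXRα-Tg TAC 3, stood apart from the other two, and its groups overlapped (0.40, adjusted p = 0.695, and 0.13 without that array). Nr1h3 was low and Eif2s3y undetected on that array. The lowest values belonged to Slc25a32 at −0.20 (adjusted p = 0.899), Slc25a45 at −0.17 (adjusted p = 0.914) and the calcium-regulated ATP-Mg/phosphate carrier Slc25a25 at −0.16 (adjusted p = 0.909).

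Between the TAC groups the carriers split evenly about 0. Of 26 members 0 were called, as were 0% of all genes, 13 lay above 0, against 48.9% of all genes, and the median log2 fold change was 0.01 against −0.01 for all genes. Slc25a1 had log2 signals of 6.58, 6.71 and 6.69 in LXRα-Tg TAC and 6.32, 6.25, 6.33 and 6.12 in Wt TAC. The groups did not overlap (log2 fold change 0.41, SE 0.15, adjusted p = 0.988), and the second probe gave 0.34. Slc25a16, a relative of the coenzyme A carriers, had 7.88, 7.73 and 7.62 against 8.41, 8.17, 8.22 and 7.83, with overlap (−0.41, SE 0.17, adjusted p = 0.988). These were the 1 higher and 1 lower member at an unadjusted p under 0.05, against 1.86% and 2.86% of all genes.

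Groups did not overlap, on the higher side, for 2 members, Slc25a1 and Slc25a34, against 2.19% of all genes in that direction. Slc25a14 lay lower without overlap, but it met the detection criterion only through Wt TAC arrays, and its bound gave no fold. Slc25a34 gave 0.24 (adjusted p = 0.988) with its brighter probe and −0.12 with the other, so that its probes disagreed in sign here. Slc25a47 gave 0.53, Slc25a36 −0.33 and the peroxisomal coenzyme A carrier Slc25a17 −0.28, each with an adjusted p of 0.988. The Slc25a47 value was 0.32 without LXRα-Tg TAC 1, where its signal was 236.2 and the liver markers summed to 4302. The part of liver RNA was not tested here either.

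The difference of the TAC effects, LXRα-Tg minus Wt, asked whether the response to pressure overload depended on the genotype label. It uses all 4 groups, so it is not independent of the comparisons above. Of 26 members 0 were called, as were 0% of all genes. At an unadjusted p under 0.05 there were 6 members higher and 0 lower, against 4.2% and 6.05% of all genes. Of the members 18 of 26 lay above 0, against 48.8% of all genes, with a median of 0.14 against −0.01. Other mitochondrial genes leaned the same way. Above 0 were 54 of 82 respiratory chain and ATP synthase genes (median 0.09) and 11 of 17 protein import genes (median 0.10). So were 7 of 12 other mitochondrial transport genes (median 0.13).

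Slc25a34 came nearest to the threshold at 0.82 (SE 0.20, adjusted p = 0.189), with 0.27 for its second probe. The value was 0.79 within slide 1, 1.03 within slide 2 and 0.44 without the 5 arrays against their label. Each of these left a single array in a sham group. Slc25a29 gave 0.86 (adjusted p = 0.305), Slc25a42 0.98 (adjusted p = 0.395) and Slc25a47 1.39 (adjusted p = 0.422). The Slc25a47 value was 0.85 without Wt sham 3, the array with the highest liver markers. Slc25a38 gave 0.55 with its brightest probe (adjusted p = 0.314) and 0.65 and 0.52 with the other two, and Slc25a12 gave 0.40 (adjusted p = 0.387). With each array scaled to 1 median instead of quantile normalization Slc25a38 and Slc25a12 were at 0.13 and 0.0090, where the median of all genes was −0.37.

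All 5 measured amino acid carriers lay above 0 in this difference, with a median of 0.40. The order of the amino acid carriers' array means was Wt sham (0.11 to 0.28), LXRα-Tg TAC (−0.06 to 0.19), Wt TAC (−0.10 to 0.01) and LXRα-Tg sham (−0.33 to −0.15). LXRα-Tg TAC overlapped both of its neighbours in that order, whereas LXRα-Tg sham lay below all arrays of the other groups. On the lower side were Slc25a32 at −0.68 (adjusted p = 0.506), Slc25a14 at −0.41 (adjusted p = 0.506), Slc25a36 at −0.34 (adjusted p = 0.769) and Slc25a16 at −0.28 (adjusted p = 0.759). The Slc25a14 value cannot be read as a response, since the gene met the detection criterion only through Wt TAC arrays.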

How the data were processed

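The deposited table held, per probe and array, a linear signal intensity that the authors exported from GenomeStudio 2011.1, going by the submitters' notes, background-subtracted and not normalized between arrays, with the detection p-value deposited beside it. A second deposited table held the authors' processed intensity values (median 6.5 on every array) and was used as an alternative. The array software's alignment and build are not given in the sources used here.

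Sample titles gave the groups, and arrays were numbered in their listed order within a group. Although the record states 3 samples per group, none of the 4 Wt TAC arrays was dropped. Precision is limited by how few arrays there are. The platform table gives 1 gene symbol for 23978 probes, several for 0 and none for 1719, and a check by Entrez number altered 0.

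Background correction and quantile normalization were done by neqc (limma 3.58.1, R 4.3.3), with an offset of 16 and the negative controls derived from detection p-values. A detection p under 0.01 on at least 3 arrays was required (11028 probes), and each gene was represented by its brightest probe (7837 genes). Fold changes are on this offset log2 scale, which understates changes of dim probes. One mean per group was fitted over the 13 arrays by lmFit and eBayes, leaving 9 residual degrees of freedom, and 5 comparisons were drawn from it. Adjusted p-values come from limma after Benjamini-Hochberg adjustment across all genes, and under 0.05 a gene was called. The fit was tested on simulated data.

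Full statistics were given for called members, for the 4 highest and 4 lowest fitted values between the sham groups and in the difference of the TAC effects, for the 3 and 3 in the other comparisons, and for related pairs. Slc25a15, Slc25a38 and Slc25a44 were named outside this rule after their values were seen. The members and lists were chosen with earlier results of these data known. Promoter sequences were RefSeq's on GRCm38.p6. The study's methods name no test for the arrays, so its t-test and its Bonferroni comparison were alternatives, beside the background correction, scaling, detection filter, probe choice, slide, array weights, samples in the fit and each array left out.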

Additional observations from a re-analysis of the deposited data

Results flagged for a closer look

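Of 18 named members examined on the 4 Wt TAC arrays, 2 had an array far from the others. Groups with fewer arrays were not examined. Chance gives about 1 in 20 for a single member. These members share the same arrays and were mostly named by their fitted values, so the count cannot be set against that share. Slc25a25 on Wt TAC 4 was at a log2 signal of 6.52, with the other Wt TAC arrays at 5.96 to 6.03. Slc25a17 on Wt TAC 3 was at 5.53, with the others at 6.89 to 7.03.

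The TAC effect ran in opposite directions in the labelled genotypes for 3 members. This is 3 of 26, against 0.447% of all 7837 genes with the same pattern and 0.536% with the reverse one. For Slc25a12, Slc25a34 and Slc25a38 every Wt TAC array lay below every Wt sham array, while every LXRα-Tg TAC array lay above every LXRα-Tg sham array. This refers to the probe that represented each gene, after quantile normalization, and other probes were not tested for it. Before normalization the sham and TAC signals of these probes overlapped in both labelled genotypes. Slc25a12, for example, had 962 to 1360 in Wt sham, with 973 on Wt TAC 2 and 1303 on Wt TAC 1. With each array scaled to 1 median its log2 fold change for TAC in Wt was 0.036. The second Slc25a34 probe, also before normalization, went against the pattern on some arrays. It had 50.5 on Wt TAC 1, with 24.4 to 37.2 in Wt sham. On LXRα-Tg TAC 2 it had 14.1, with 22.5 to 30.5 in LXRα-Tg sham. The differences of the effects were 0.40, 0.82 and 0.55 on the log2 scale, with limma's adjusted p of 0.387, 0.189 and 0.314, so none passed. The same Wt sham and LXRα-Tg sham arrays were the high and the low group for these genes in the sham comparison, so the pattern is not independent of it. Both directions use sham arrays of which 3 went against the genotype label by Nr1h3.

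Some members left out as undetected had a signal on a single array above the Wt sham arrays. Both Slc25a13 probes were detected on LXRα-Tg sham 1 alone, with signals of 33.6 and 44, against at most 5.6 and 18.3 in Wt sham. Slc25a30 was detected on Wt TAC 1 alone, at 18.7 against at most 9.8 in Wt sham.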

How the results depend on the processing

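No paired analysis was possible because the labels carry no replicate numbers. Outside the sham comparison the count of called members stayed at 0 under all limma alternatives run. Between the sham groups it was 1 with probes detected on all 13 arrays (Slc25a29, adjusted p = 0.0403), 1 with slide as a block (Slc25a34, adjusted p = 0.0320), 3 with array weights (Slc25a29, adjusted p = 0.0162; Slc25a42, 0.0370; Slc25a34, 0.0441) and 0 to 1 with each array left out, the 1 being Slc25a29 without LXRα-Tg TAC 3 (adjusted p = 0.0238). Of all genes these settings called 2.46%, 1.53%, 6.06% and 1.58%. The methods' t-test, run unpaired because the labels pair no arrays, called 6, 3, 3 and 4 members at an unadjusted 0.05 in the 4 comparisons of groups, against 13.2%, 6.75%, 6.05% and 4.58% of all genes, and the Bonferroni comparison 4 between the sham groups, 1 under TAC in Wt and 3 under TAC in LXRα-Tg, against 6.66%, 1.88% and 1.93%; after Benjamini-Hochberg both called 0.

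Scaling each array to 1 median moved the median of all genes to 0.15, 0.19, −0.17, −0.20 and −0.37 in the 5 comparisons, and that of the members to −0.0027, 0.078, −0.041, −0.18 and −0.19. Relative to all genes the members were then at −0.16, −0.11, 0.13, 0.02 and 0.17, against −0.17, −0.13, 0.08, 0.01 and 0.15 before. On slide 1 alone the members' medians were −0.091 between the sham groups, −0.0033 under TAC in Wt, 0.17 under TAC in LXRα-Tg and 0.10 between the TAC groups. Each LXRα-Tg group held a single array on that slide. The difference of the TAC effects had a median of 0.21 with probes detected on all 13 arrays. It was 0.24 on slide 2 alone, where Wt sham held a single array. TAC in Wt had a median of −0.029 with array weights. The members' median over arrays left out in turn ranged from −0.13 to −0.012 for TAC in Wt and from 0.10 to 0.21 for the difference. Chosen after seeing the data, leaving out the 5 arrays against their label gave 0.0018 for TAC in Wt and leaving out the 2 arrays lacking Eif2s3y gave −0.051. The causes were not tested. Every probe as its own row was run for counts and medians only.

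Of 47 fitted values of single members, these changed sign. With median scaling Slc25a12 in TAC in Wt was 0.036 and Slc25a34 between the TAC groups −0.016. On slide 1 alone Slc25a14 between the sham groups was −0.0098, Slc25a36 in TAC in Wt −0.13, Slc25a45 and Slc25a25 in TAC in LXRα-Tg 0.23 and 0.50, and Slc25a17 between the TAC groups 0.11. Without the 5 arrays Slc25a15 between the sham groups was 0.025 and Slc25a17 between the TAC groups 0.072. With arrays left out in turn Slc25a45 in TAC in LXRα-Tg ranged from −0.35 to 0.022 and Slc25a36 in TAC in Wt from −0.0051 to 0.38. Members detected numbered 29 at a detection p under 0.05 and 22 when all 13 arrays were required. Signals near the lowest detected, 14.6 to 24.2, limit Slc25a14, Slc25a24, Slc25a32 and Slc25a35. They limit Slc25a29 in LXRα-Tg sham as well.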
